A study of Mus musculus with 96 samples.

Results

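The genes Scn4a, Scn7a and Scn4b, which encode voltage-gated sodium channel subunits, were followed in RNA from mouse heart ventricle. They were chosen by name as alpha and beta subunits of the sodium channel and are 3 of the 55376 genes counted. All 3 passed the filter on low counts that left 15629 tested genes. The hearts came from mice labelled iCSBmal1 KO, in which Bmal1 can be deleted on induction and in cardiomyocytes only. Bmal1 (listed as Arntl) is the activator at the core of the circadian clock. Mice labelled Tamoxifen had received the drug that induces the knockout, and mice labelled Vehicle carry the same genotype label without induction. Sex and circadian time (ct, in hours) come from the library titles, while age and strain background are not given in the labels. This gave 4 groups of 24 libraries each: tamoxifen females, tamoxifen males, vehicle females and vehicle males. Each group had 2 libraries at each of 12 times, every 4 h from ct 18 to ct 62. The study asked how Bmal1 bears on the differences between female and male hearts.

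The effects of tamoxifen and of the knockout cannot be told apart in this design, because all tamoxifen hearts carry the knockout allele and no group received tamoxifen without it. Cells other than cardiomyocytes keep Bmal1 under a cardiomyocyte-specific knockout, and the RNA is from whole ventricle, so fewer cells of a type and less RNA per cell cannot be told apart either. Nothing in the labels states that each library is its own animal, and p-values here cover spread among libraries, which may in part be technical. The running numbers in the titles fall into separate ranges for tamoxifen hearts, vehicle females and vehicle males. A batch that followed these numbers could therefore not be told apart from treatment, or from sex in vehicle hearts.

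Voltage-gated sodium channels carry the fast inward current that starts the action potential of heart and skeletal muscle cells. An alpha subunit forms the pore, and beta subunits are small membrane proteins that modulate gating and surface expression of the alpha subunit. Scn4a encodes Nav1.4, the main sodium channel of skeletal muscle. Scn7a encodes Nax, an atypical alpha subunit known as a sensor of extracellular sodium in glia. Scn4b encodes the beta-4 subunit.

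Library totals ran from 8944955 to 20596194 counts, and 15629 genes were fitted together. The gene counts cover whole transcripts and the labels do not say which part of Arntl is deleted, so the Arntl total is no check of the deletion. Arntl had 2.85, 16.2 and 28.3 CPM (counts scaled to the library total) as lowest, median and highest value in tamoxifen females and 1.31, 13.2 and 31.7 CPM in tamoxifen males. The same values were 0.992, 13.8 and 56.3 CPM in vehicle females and 1.26, 14.2 and 48.3 CPM in vehicle males. The ranges of the groups overlapped, but the fitted peak-to-trough ratio of Arntl over the day was 3.33-fold in tamoxifen females and 3.35-fold in tamoxifen males, against 27.2-fold in vehicle females and 17.1-fold in vehicle males. A pair of libraries at ct 54 stood apart. The first went against its sex label in Xist, and the second differed from the other library of its group and time. The first, labelled tamoxifen female and called here the Xist-low library, held 0.272 CPM of Xist, the RNA of the inactive X, and 11.3 CPM of the Y-linked Ddx3y. The tamoxifen male libraries of ct 54 held 139.4 and 156.4 CPM of Ddx3y, and the other tamoxifen female library held 287.9 CPM of Xist. The second, labelled tamoxifen male and called here the Arntl-low library, held 1.31 CPM of Arntl and 87.2 CPM of the clock repressor Per2, where the other tamoxifen male library at that time held 17.8 and 8.4 CPM. The vehicle male libraries of ct 54 held 25.3 and 19.2 CPM of Arntl. In all, 5 tamoxifen libraries held under 0.5 times the Arntl of the other library of their group and time. They were the Arntl-low library, 3 further tamoxifen male libraries at ct 34, 38 and 58, and 1 tamoxifen female library at ct 58, which held 2.84 CPM of Arntl beside 10.6 CPM in its pair. The last of these held the highest Scn4a value of tamoxifen females. Vehicle males averaged 1.55, 2.21 and 4.54 CPM of Arntl at ct 34, 38 and 58, and vehicle females 1.66 CPM at ct 58. Dbp, another clock gene, stood at 185, 85.3, 142 and 110 CPM in these tamoxifen male libraries at ct 34, 38, 54 and 58. Their pairs held 76.7, 42.1, 29.8 and 87.0 CPM. In the female library of ct 58 Dbp was 263 CPM, beside 103 CPM in its pair. Low Arntl is not read here as more deletion, and what sets these libraries apart was not tested.

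In 10 of the 24 vehicle male libraries, TEC genes (a GENCODE class of transcripts that still await experimental proof) took 0.123% to 0.19% of the counts, against 0.0814% to 0.106% in the other 14 vehicle male libraries and 0.08% to 0.112% in the 72 libraries of the other groups. These 10 libraries lay at ct 26, 30, 34, 38, 42, 54, 58 and 62. They include both vehicle male libraries of ct 30 and of ct 34, and 1 of the 2 at each other listed time. Leaving them out therefore changes the hours sampled in vehicle males as well as the libraries. The median of each of the 3 sodium channel genes lay apart between these 10 and the other 14, which lie at partly different hours. Values without the 10 are given beside each result on the 3 genes whose call their removal changed or whose value it moved by over 1.5 times. Atrial tissue was also unequally present, since 13 libraries held over 20 CPM of the atrial light chain Myl7, of which 1 was tamoxifen female, 2 were tamoxifen male, 7 were vehicle female and 3 were vehicle male. The tamoxifen female library among them was the Xist-low library, at 724.3 CPM of Myl7. Values without it and values without the Myl7-high libraries therefore share its removal.

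Scn4a (ENSMUSG00000001027.7) lies on chromosome 11 at 106318592 to 106353288 on the minus strand, Scn7a (ENSMUSG00000034810.7) on chromosome 2 at 66673425 to 66784914 on the minus strand, and Scn4b (ENSMUSG00000046480.6) on chromosome 9 at 45138395 to 45154152 on the plus strand, in the GENCODE M21 annotation of GRCm38. None of them overlaps another annotated gene. The RefSeq (GRCm38.p6) promoter windows of Scn4a and Scn4b, 250 bases before to 50 bases after the annotated start, are shown because these genes varied together over the day. The Scn4a window is chr11:106349341-106349640, minus strand, and starts from a RefSeq start inside the GENCODE gene. The Scn4b window is chr9:45138374-45138673, plus strand. They read 5′ to 3′ as follows, with no capitals because none of the searched motifs occurs in them.
Scn4a: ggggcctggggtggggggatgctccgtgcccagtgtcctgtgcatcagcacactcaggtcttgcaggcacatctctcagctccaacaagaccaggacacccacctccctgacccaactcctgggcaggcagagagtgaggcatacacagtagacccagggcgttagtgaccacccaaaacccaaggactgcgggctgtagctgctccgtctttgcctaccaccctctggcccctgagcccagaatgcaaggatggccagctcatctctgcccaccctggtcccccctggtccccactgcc
Scn4b: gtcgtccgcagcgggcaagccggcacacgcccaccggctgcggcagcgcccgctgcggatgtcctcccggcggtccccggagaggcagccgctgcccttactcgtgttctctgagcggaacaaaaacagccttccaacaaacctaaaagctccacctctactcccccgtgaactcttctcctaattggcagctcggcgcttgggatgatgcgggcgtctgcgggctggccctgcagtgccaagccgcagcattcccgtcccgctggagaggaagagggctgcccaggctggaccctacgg
The Scn4b window holds 26 CG pairs in 300 bases and has 66.3% G and C, the Scn4a window 4 CG pairs and 63%, and the Scn7a window (not shown) 3 CG pairs and 54%. On both strands the E-box CACGTG, the variant CACGTT, the D-box TTATGTAA and the ROR core AGGTCA had 0 matches in each of the 3 windows. Among 32851 RefSeq promoter windows of this length, 7.15% hold CACGTG, 4.68% CACGTT, 0.938% TTATGTAA and 16.3% AGGTCA.

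Scn4a followed a 24 h rhythm that was deep in vehicle females. In vehicle males its fitted amplitude was smaller and its fitted peak lay at another hour, though timing was not tested apart from amplitude. The call in vehicle males was lost without the TEC-high libraries. In both tamoxifen groups Scn4a was below the threshold of the rhythm test. In tamoxifen females it ran from 16.8 CPM at ct 46 through a median of 32.1 CPM to 53.6 CPM at ct 58. In tamoxifen males it ran from 25.8 CPM at ct 18 through 40.3 CPM to 58.4 CPM at ct 34. In vehicle females it ran from 9.69 CPM at ct 42 through 38 CPM to 67.9 CPM at ct 34, and in vehicle males from 15.8 CPM at ct 38 through 30.3 CPM to 55.2 CPM at ct 54. The groups overlapped, and vehicle females had both the lowest and the highest libraries of all: 3 of them lay below the lowest tamoxifen female library and 7 above the highest.

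The hours of high Scn4a in vehicle female hearts returned on the second day, while the low hours were less alike. On the first day Scn4a had 42.5 and 49.3 CPM in the libraries of ct 26, 48.2 and 58.1 CPM in those of ct 30, and 42.1 and 67.9 CPM in those of ct 34. In the following trough ct 38 had 23 and 23.2 CPM, ct 42 had 9.69 and 13.3 CPM, and ct 46 had 22.6 and 24.1 CPM. On the second day they were again high, with 53.8 and 59 CPM in the libraries of ct 50, 55.2 and 60.2 CPM in those of ct 54, and 43.7 and 62.1 CPM in those of ct 58. Both libraries of each of the 6 high times lay above both libraries of every other time in the group. Among the low times, ct 18 held 26 and 28.3 CPM, above ct 42 at the same hour of the next day. At ct 62 the libraries held 31.7 and 34 CPM, above ct 38 at the same hour of the day before. Averaged over both days and scaled by TMM (a normalization for library composition), vehicle females had 54.6 ± 13.4 CPM (SD, 4 libraries) at hour 10 of the circadian day and 19.3 ± 9.42 CPM at hour 18, a ratio of 2.83. Tamoxifen females had 42.2 ± 8.24 CPM at hour 10 and 24.6 ± 6.44 CPM at hour 22, the highest and lowest hours of that group, a ratio of 1.72.

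**Figure D1:**
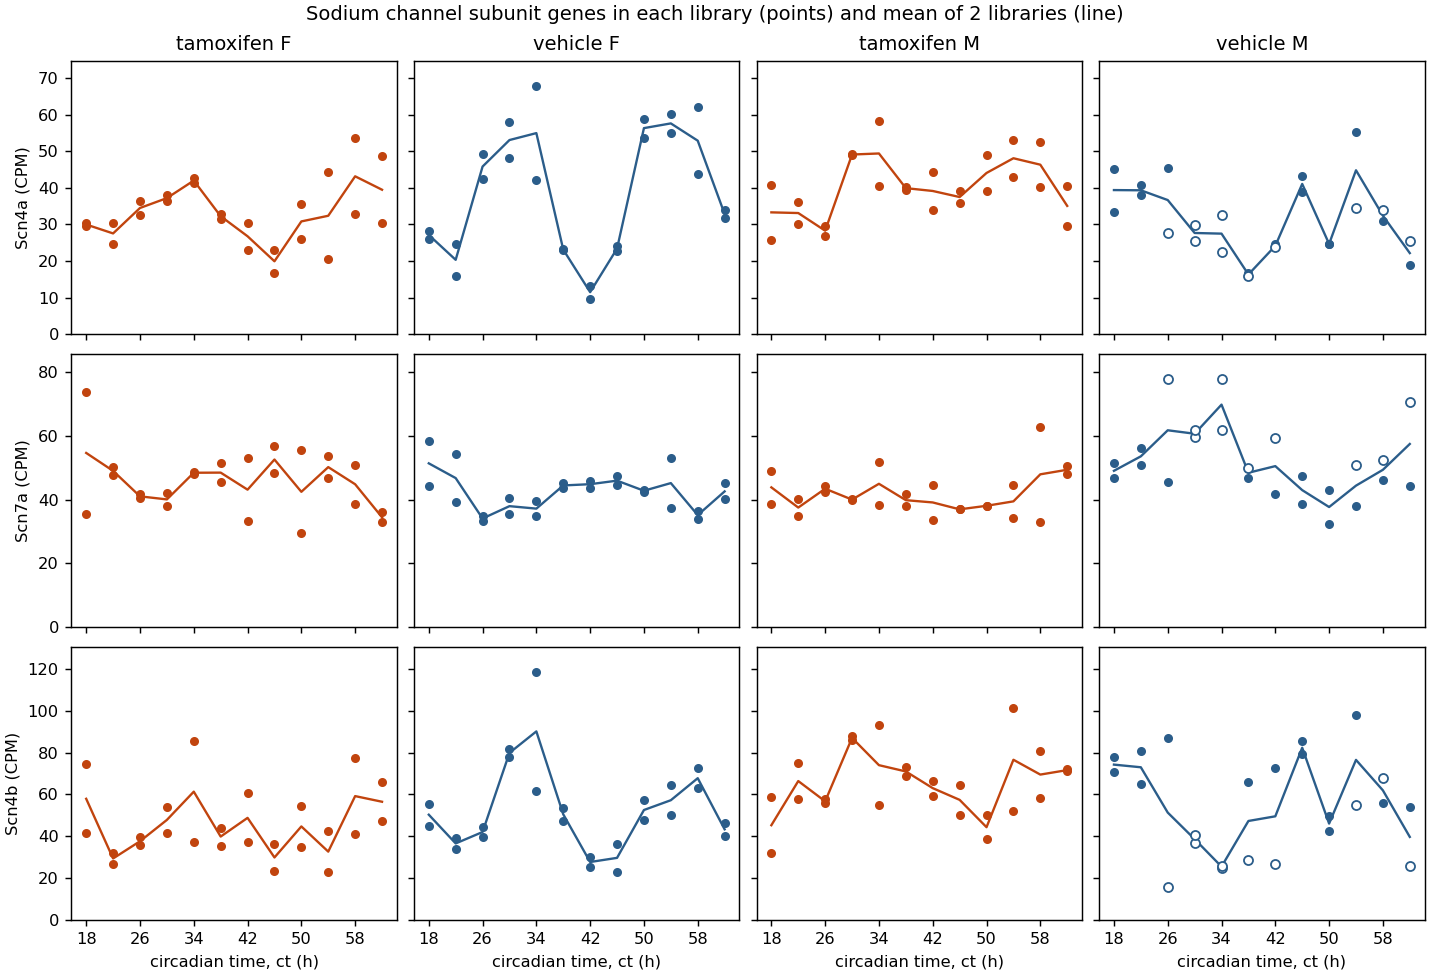
CPM of Scn4a, Scn7a and Scn4b (rows) against circadian time in hours, in tamoxifen females, vehicle females, tamoxifen males and vehicle males (columns); points are libraries, lines join the mean of the 2 libraries at a time, and open circles mark the 10 TEC-high libraries of vehicle males. Scn4a in vehicle females swings between 9.69 and 67.9 CPM with high values at the same hours of both days, and the open circles of vehicle males lie low for Scn4b and high for Scn7a.

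The edgeR quasi-likelihood fit gave Scn4a a log2 amplitude (mean to peak) of 0.86 ± 0.11 (SE) in vehicle females, with a peak at ct 6.66, a peak-to-trough ratio of 3.31 and an adjusted p of 1.876e-09. That amplitude was above those of 99.1% of the tested genes in the group. In tamoxifen females the amplitude was 0.32 ± 0.10 with a peak at ct 9.52 (adjusted p = 0.05944), and in tamoxifen males it was 0.22 ± 0.10 with a peak at ct 8.4 (adjusted p = 0.326). In vehicle males it was 0.36 ± 0.11 with a peak at ct 0.806 and an adjusted p of 0.01243. Of all tested genes, 17.1% passed the rhythm test in tamoxifen females, 8.03% in tamoxifen males, 34.5% in vehicle females and 55.2% in vehicle males. In vehicle males, the highest hour of the day was hour 22, at 40.6 ± 3.15 CPM, and the lowest hour 14, at 18.4 ± 2.98 CPM (SD, 4 libraries each). Without the 10 TEC-high libraries the vehicle male amplitude was 0.35 (adjusted p = 0.1474). Without the Xist-low library the rhythm in tamoxifen females passed, with an amplitude of 0.36 (adjusted p = 0.0238). It also passed without the TEC-high libraries (0.33, adjusted p = 0.03257). Without the tamoxifen female library of ct 58 that was low in Arntl the amplitude in tamoxifen females was 0.28 (adjusted p = 0.1552).

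Differences between rhythms were tested on the cosine and sine terms together. Their size is the length of the difference vector in log2 units, which has no sign and combines amplitude and timing. The Scn4a rhythm differed between vehicle females and vehicle males by 0.92 ± 0.14 on the log2 scale (adjusted p = 2.193e-05), where 37.4% of genes passed. It was 0.88 (adjusted p = 0.002712) without the TEC-high libraries. Between tamoxifen females and tamoxifen males the vector was 0.12 ± 0.14 (adjusted p = 1), where 0.0384% of genes passed. Tamoxifen changed the Scn4a rhythm in females by 0.67 ± 0.15 (adjusted p = 0.04255), where 0.237% of genes passed, and in males by 0.50 ± 0.15 (adjusted p = 0.02884), where 20.7% passed. The female change lost its call without the Xist-low library (0.60, adjusted p = 0.08093), and the male change lost it without the TEC-high libraries (0.47, adjusted p = 0.1799).

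**Figure D2:**
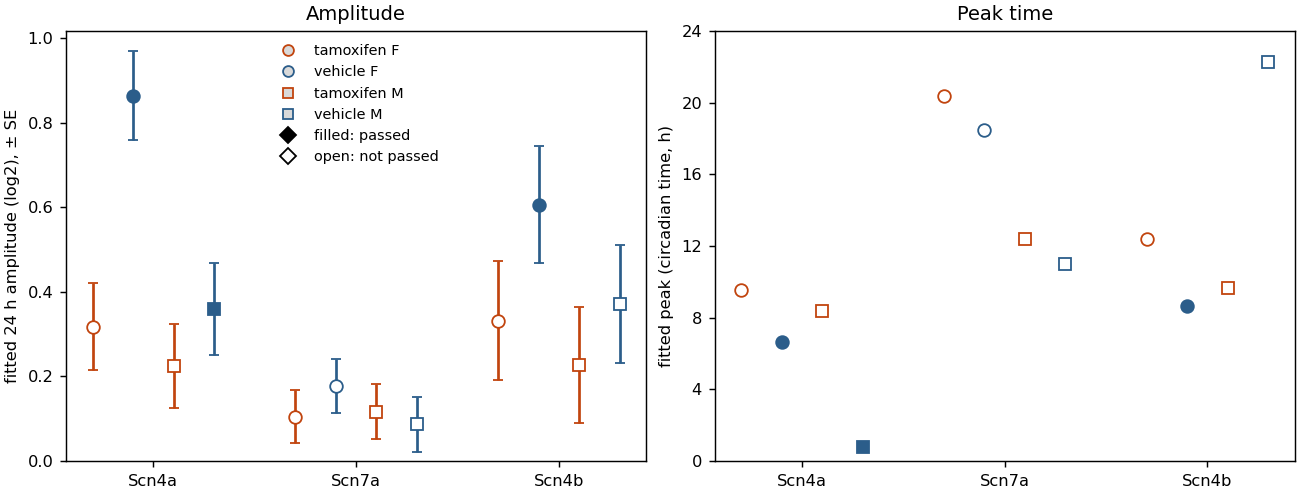
Fitted 24 h amplitude in log2 units with its SE (left) and fitted peak in circadian hours (right) for the 3 genes in tamoxifen females, vehicle females, tamoxifen males and vehicle males; filled symbols passed an adjusted p of 0.05. Scn4a (amplitude 0.86) and Scn4b (0.61) in vehicle females and Scn4a in vehicle males (0.36) are filled. The fitted vehicle male peaks of Scn4a (ct 0.806) and Scn4b (ct 22.3, open) lie apart from the other groups' peaks between ct 6.66 and ct 12.4. Peaks are drawn without error, and open ones come from fits that did not pass.

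The mean level of Scn4a over the day rose with tamoxifen in males. It averaged 41.5 ± 8.7 TMM-scaled CPM in tamoxifen males, against 30.7 ± 10.8 in vehicle males (SD, n = 24 each), and 10 vehicle male libraries lay below the lowest tamoxifen male library. The log2 difference was 0.44 ± 0.10 (1.36-fold, adjusted p = 9.345e-05), in the same direction at 8 of 12 times. Of all genes, 70% passed this comparison, 32.2% higher and 37.8% lower. The difference was 0.30 without the TEC-high libraries (adjusted p = 0.04946). In females Scn4a averaged 33.5 ± 8.84 CPM with tamoxifen, against 37.9 ± 16.9 CPM with vehicle, a log2 difference of -0.08 ± 0.10 with a 95% interval of -0.28 to 0.13 (adjusted p = 0.6201), where 27.5% of genes passed.

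The female and male tamoxifen effects on the mean of Scn4a differed by -0.52 ± 0.14 (female minus male, adjusted p = 0.001813), where 52.3% of genes passed, 27% with the female effect higher and 25.4% with it lower. The difference was -0.38 without the TEC-high libraries (adjusted p = 0.06239). Tamoxifen females were lower than tamoxifen males by a log2 difference of -0.32 ± 0.10 (adjusted p = 0.03711), at 10 of 12 times, where 7.68% of genes passed, 4.08% higher and 3.6% lower. This call was lost without the Xist-low library (-0.28, adjusted p = 0.06644), without the Arntl-low library (-0.31, adjusted p = 0.05072) and without all 5 tamoxifen libraries low in Arntl (-0.32, adjusted p = 0.06604). Between vehicle females and vehicle males the difference was 0.21 ± 0.10 (adjusted p = 0.06951), where 68.3% of genes passed, 31.8% higher and 36.5% lower, and it was 0.07 (adjusted p = 0.6703) without the TEC-high libraries.

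Scn4b, the beta subunit, also varied over the day in vehicle females, and it was lower in tamoxifen females than in tamoxifen males. In tamoxifen females it ran from 22.9 CPM at ct 54 through a median of 41.1 CPM to 85.6 CPM at ct 34. In tamoxifen males it ran from 31.8 CPM at ct 18 through 62 CPM to 101.2 CPM at ct 54. In vehicle females it ran from 23 CPM at ct 46 through 47.6 CPM to 119 CPM at ct 34, and in vehicle males from 15.5 CPM at ct 26 through 55.6 CPM to 98.2 CPM at ct 54. All 4 groups overlapped, and among tamoxifen hearts the Xist-low library held the lowest value and the Arntl-low library the highest.

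In vehicle females Scn4b had an amplitude of 0.61 ± 0.14, a peak at ct 8.68 and a peak-to-trough ratio of 2.32 (adjusted p = 0.001508), above the amplitudes of 97.2% of genes. Its highest hour was hour 10, at 79.8 ± 27.3 TMM-scaled CPM, and its lowest hour 22, at 32.6 ± 6.68 CPM (SD, 4 libraries each). The libraries of ct 30 held 78 and 81.9 CPM and those of ct 34 held 61.6 and 119 CPM, and the following trough had 25.2 and 30.1 CPM at ct 42, with 23 and 36.2 CPM at ct 46. On the second day the hours of high Scn4b returned at lower values, with 63.1 and 72.5 CPM at ct 58. The amplitude was 0.33 ± 0.14 in tamoxifen females (adjusted p = 0.2065), 0.23 ± 0.14 in tamoxifen males (adjusted p = 0.5831) and 0.37 ± 0.14 in vehicle males, with a peak at ct 22.3 (adjusted p = 0.05675).

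The Scn4b rhythm differed between vehicle females and vehicle males by a vector of 0.96 ± 0.20 (adjusted p = 0.0004558), and by 0.71 (adjusted p = 0.02245) without the TEC-high libraries. In vehicle males the high and low libraries were not sorted by time alone, since the pair of ct 26 held 15.5 and 87.1 CPM, that of ct 38 held 28.8 and 65.8 CPM and that of ct 42 held 26.6 and 72.5 CPM, the low library of each pair being TEC-high. The 10 TEC-high libraries held 15.5, 27.7 and 67.8 CPM of Scn4b as lowest, median and highest value, against 42.4, 71.5 and 98.2 CPM in the other 14. Without them the vehicle male amplitude was 0.12 (adjusted p = 0.835). It was 0.39 without the 5 tamoxifen libraries low in Arntl and then passed (adjusted p = 0.04807). The change of the Scn4b rhythm with tamoxifen was 0.50 ± 0.20 in females (adjusted p = 0.3043) and 0.60 ± 0.20 in males (adjusted p = 0.05412; 0.35 and 0.4337 without the TEC-high libraries), and the vector between tamoxifen females and tamoxifen males was 0.22 ± 0.20 (adjusted p = 1).

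The mean of Scn4b was 46 ± 16.5 CPM in tamoxifen females, against 67.2 ± 17.2 CPM in tamoxifen males (SD, n = 24 each), lower at 11 of 12 times. The log2 difference was -0.56 ± 0.14 (0.68-fold, adjusted p = 0.004682), and it was -0.55 (adjusted p = 0.0001526) without the TEC-high libraries, whose removal changes the shared estimate of spread. With tamoxifen, Scn4b was higher in males by 0.30 ± 0.14 (adjusted p = 0.04785), averaging 67.2 ± 17.2 CPM with tamoxifen and 55.1 ± 25.5 CPM with vehicle, and 6 vehicle male libraries lay below the lowest tamoxifen male library. The sign turned without the TEC-high libraries (-0.07, adjusted p = 0.6901), and the call was lost without the Arntl-low library (0.27, adjusted p = 0.07452) and without all 5 tamoxifen libraries low in Arntl (0.28, adjusted p = 0.09021). In females the difference was -0.13 ± 0.14 (95% interval -0.41 to 0.15, adjusted p = 0.5261), and the female and male effects differed by -0.43 ± 0.20 (adjusted p = 0.05835). That difference of effects was -0.06 without the TEC-high libraries (adjusted p = 0.82), and -0.46 without the tamoxifen female library low in Arntl, where it passed (adjusted p = 0.04449). Between vehicle females and vehicle males it was -0.12 ± 0.14 (adjusted p = 0.4372), and -0.49 (adjusted p = 0.001837) without the TEC-high libraries.

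Scn7a, the atypical alpha subunit, showed no rhythm past the threshold in any group and small differences in mean. It ran from 29.4 CPM at ct 50 through a median of 47.3 CPM to 73.8 CPM at ct 18 in tamoxifen females and from 33 through 40 to 62.9 CPM, with both extremes at ct 58, in tamoxifen males. It ran from 33.3 CPM at ct 26 through 42.8 CPM to 58.5 CPM at ct 18 in vehicle females and from 32.4 CPM at ct 50 through 50.4 CPM to 78 CPM at ct 26 in vehicle males. The groups overlapped almost fully, and the highest libraries were vehicle male. The amplitude was 0.11 ± 0.06 in tamoxifen females (adjusted p = 0.4759), 0.12 ± 0.06 in tamoxifen males (adjusted p = 0.514), 0.18 ± 0.06 in vehicle females (adjusted p = 0.06505) and 0.09 ± 0.06 in vehicle males (adjusted p = 0.48). At an unadjusted p, the vehicle female rhythm had 0.02442. The vectors of change with tamoxifen were 0.10 ± 0.09 in females (adjusted p = 0.8029) and 0.05 ± 0.09 in males (adjusted p = 0.9179), and those between the sexes 0.19 ± 0.09 with tamoxifen (adjusted p = 0.965) and 0.23 ± 0.09 with vehicle (adjusted p = 0.1071). Without the TEC-high libraries the vehicle male amplitude was 0.15, the male vector of change 0.20 and the vector between vehicle females and vehicle males 0.02, none past the threshold.

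In males Scn7a was lower with tamoxifen, at 42.8 ± 6.47 TMM-scaled CPM, against 50 ± 8.06 CPM with vehicle (SD, n = 24 each). The log2 difference was -0.22 ± 0.06 (0.856-fold, adjusted p = 0.001596), at 11 of 12 times. In females it was 0.14 ± 0.06, with 46.3 ± 9.44 CPM under tamoxifen and 42 ± 6.15 CPM under vehicle (adjusted p = 0.08664). The female and male effects differed by 0.37 ± 0.09 (adjusted p = 0.0005508), and vehicle females were lower than vehicle males by a log2 difference of -0.25 ± 0.06 (adjusted p = 0.0003825). The difference between tamoxifen females and tamoxifen males was 0.11 ± 0.06 (adjusted p = 0.3221).

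The TEC-high vehicle male libraries moved with each called result on Scn7a. They held 50, 60.7 and 78 CPM as lowest, median and highest value, against 32.4, 45.9 and 56.3 CPM in the other 14. Without them the male effect of tamoxifen was -0.06 (adjusted p = 0.5558), the difference of effects 0.20 (adjusted p = 0.1255) and the sex difference in vehicle hearts -0.08 (adjusted p = 0.4098). For Scn4a the TEC-high libraries held 15.8, 26.7 and 34.4 CPM, against 16.8, 35.8 and 55.2 CPM in the other 14. What sets these libraries apart was not tested.

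**Figure D3:**
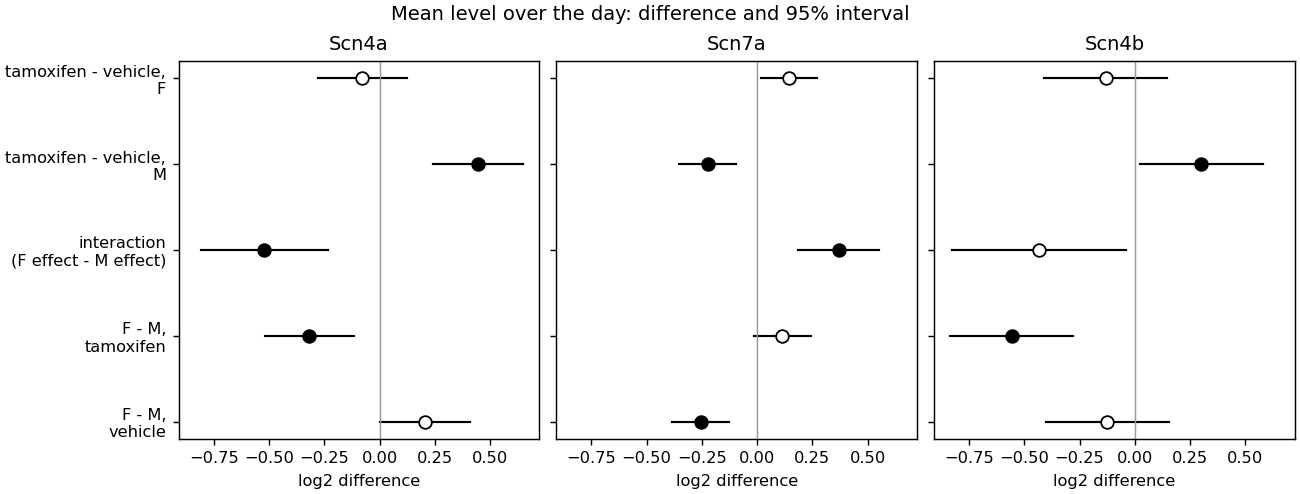
Log2 differences of the mean level over the day with 95% intervals for Scn4a, Scn7a and Scn4b, with rows for tamoxifen minus vehicle in females and in males, the difference of those effects, and female minus male in tamoxifen and in vehicle hearts; filled circles passed an adjusted p of 0.05. In males Scn4a (0.44) and Scn4b (0.30) lie right of 0 and Scn7a (-0.22) left of it, while the 3 female tamoxifen effects are open.

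Per kilobase of exon, Scn4b was the most abundant of the 3 transcripts in all 4 groups. Its level was 9.24 ± 3.31 TMM-scaled CPM per kilobase in tamoxifen females, 13.5 ± 3.45 in tamoxifen males, 10.4 ± 4.24 in vehicle females and 11.1 ± 5.12 in vehicle males (SD, n = 24 each). Scn7a had 6.31 ± 1.29 CPM per kilobase in tamoxifen females, 5.84 ± 0.882 in tamoxifen males, 5.72 ± 0.838 in vehicle females and 6.81 ± 1.1 in vehicle males. Scn4a had 4.76 ± 1.26 CPM per kilobase in tamoxifen females, 5.89 ± 1.24 in tamoxifen males, 5.39 ± 2.4 in vehicle females and 4.35 ± 1.54 in vehicle males. Scn7a and Scn4a thus lay within a SD of each other in tamoxifen males and in vehicle females, where their order is not resolved. Within each gene, the groups' means lay within 1 SD of their neighbours in order.

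Over the 48 means of group and time, Scn4a and Scn4b had a Pearson correlation of 0.709 on the log2 scale, and 0.693 after the group means were removed. Scn7a was negatively related to both, with -0.483 to Scn4a and -0.436 to Scn4b. These points share libraries and time of day and are given as a description. Among 14083 genes with a mean of at least 1 CPM, those most like Scn4a were Zfp687 (0.836), Osbp2 (0.827), Agtr1a (0.823), BC067074 (0.812) and Camk2a (0.805). Agtr1a encodes an angiotensin II receptor and Camk2a a calcium/calmodulin-dependent kinase. Those most like Scn4b were Cat (0.81), the peroxisomal enzyme catalase, Acsf2 (0.808), Lrrc39 (0.766), AC132253.9 (0.757) and Smco1 (0.742). Those most like Scn7a were Sh3bgrl (0.776), Aspn (0.719), which encodes the matrix protein asporin, Rnase4 (0.719), Casp12 (0.719) and Ptbp3 (0.704).

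Of 25 genes known to bind, place or regulate cardiac sodium channels, all tested, 17 rose and 2 fell with tamoxifen in males, where 32.2% of all genes rose and 37.8% fell. Their median log2 change was 0.284, beside -0.0465 over all genes. In females 6 rose and 2 fell, where 15.2% of all genes rose and 12.3% fell, with a median of 0.0281 beside 0.00562. The difference of the effects passed for 14 of the 25, all with the male effect the higher, where 25.4% of all genes passed in that direction. In vehicle hearts 16 of the 25 were higher and 2 lower in females than in males, where 31.8% of all genes were higher and 36.5% lower. In tamoxifen hearts 1 was higher in females and 0 were lower, where 4.08% and 3.6% of all genes were. The counts that rose and fell with tamoxifen in males were 15 and 1 without the TEC-high libraries, where 3467 of 15745 tested genes rose and 3185 fell. The list was chosen with earlier results of these data known, so its count is a description.

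Fgf13, an intracellular FGF that binds the alpha subunit's tail, averaged 88 CPM in tamoxifen males, against 59.3 CPM in vehicle males, a log2 change of 0.59 ± 0.08 (adjusted p = 3.587e-10). Gpd1l, a glycerol phosphate dehydrogenase-like protein linked to channel trafficking, rose by 0.56 ± 0.07, and Bace1, the protease that cleaves beta subunits, by 0.50 ± 0.06. Gja1, the gap junction protein connexin 43, rose by 0.49 ± 0.06, and Prkaca, the catalytic subunit of protein kinase A, by 0.47 ± 0.06. Rangrf, known as MOG1, which promotes delivery of sodium channels to the membrane, fell by 0.43 on the log2 scale (SE 0.06), with 42.2 CPM in tamoxifen males and 56.9 CPM in vehicle males. In females Rangrf fell by 0.26 (SE 0.06), and Fgf14, another intracellular FGF, fell by 0.44 (SE 0.14) at 2.01 CPM in tamoxifen females and 2.7 CPM in vehicle females. Mapre1, a microtubule end-binding protein, rose by 0.31 ± 0.03 in females and by 0.30 ± 0.03 in males, and in females Gja1 rose by 0.27 ± 0.06 and Cav3 (caveolin 3) by 0.18 ± 0.05. Without the TEC-high libraries the male changes were 0.26 for Fgf13, 0.28 for Gpd1l, 0.29 for Bace1, 0.33 for Gja1, 0.23 for Prkaca and -0.56 for Rangrf, each still past the threshold. Without the libraries over 20 CPM of Myl7 the female call of Cav3 (0.13, adjusted p = 0.08173) was lost. Rhythms passed in 8 of the 25 in tamoxifen females (17.1% of all genes), 3 in tamoxifen males (8.03%), 14 in vehicle females (34.5%) and 15 in vehicle males (55.2%).

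Of 12 genes of the sodium pump and its regulators, sodium exchangers and sodium-coupled carriers, 6 rose and 4 fell with tamoxifen in males (median 0.0388). There 32.2% of all genes rose and 37.8% fell. In females 1 rose and 2 fell (median 0.0132), where 15.2% of all genes rose and 12.3% fell. Slc8a1, the sodium-calcium exchanger, rose by 0.55 ± 0.08 in males, Slc20a2, a sodium-coupled phosphate carrier, by 0.54 ± 0.07, and the sodium pump's beta subunit Atp1b1 by 0.50 ± 0.07. These changes were 0.26, 0.29 and 0.21 without the TEC-high libraries. Fxyd5, a regulator of the pump, fell by 0.58 (SE 0.07) in males, and its change was -0.40 without the TEC-high libraries (adjusted p = 9.339e-05). In females Atp1b1 rose by 0.17 ± 0.07 and Slc12a2, a sodium-potassium-chloride carrier, fell by 0.10 (SE 0.04), and both calls were lost without the libraries over 20 CPM of Myl7 (0.18 and -0.10, adjusted p = 0.0845 and 0.05905). Slc5a1, a sodium-glucose carrier near the detection limit, fell by 1.18 (SE 0.20) in females and by 0.74 (SE 0.19) in males, with 0.329 CPM in tamoxifen females, 0.519 CPM in tamoxifen males, 0.739 CPM in vehicle females and 0.866 CPM in vehicle males. The male change of Slc5a1 was -1.06 without the TEC-high libraries (adjusted p = 3.958e-05). Of the 12, 5 rose and 4 fell in males without those libraries, where 3467 of 15745 tested genes rose and 3185 fell. Rhythms passed in 2 of the 12 in tamoxifen females (17.1% of all genes), 0 in tamoxifen males (8.03%), 4 in vehicle females (34.5%) and 9 in vehicle males (55.2%).

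**Figure D4:**
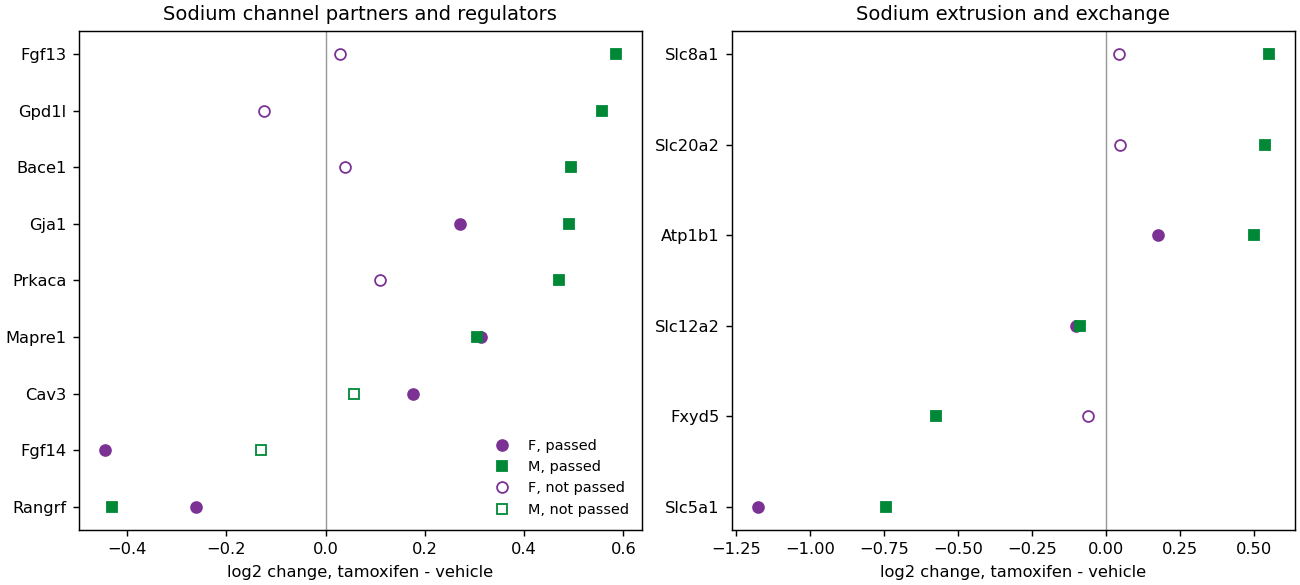
Log2 change with tamoxifen of the genes named in the text among sodium channel partners and regulators (left) and genes of the sodium pump, exchangers and coupled carriers (right, titled sodium extrusion and exchange), as circles for females and squares for males, filled where the adjusted p passed 0.05. In the left panel the male squares run from Fgf13 at 0.59 down to Rangrf at -0.43, and in the right panel Slc5a1 lies farthest left in both sexes, at -1.18 in females and -0.74 in males.

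A further 11 rows of the table are sodium channel subunit genes, of which 7 passed the filter. With tamoxifen, 0 rose and 1 fell in females (median -0.147), and 1 rose and 5 fell in males (median -0.407). Of all genes, 15.2% rose and 12.3% fell in females (median 0.00562), and 32.2% rose and 37.8% fell in males (median -0.0465). In males 0 rose and 1 fell without the TEC-high libraries, where 3467 of 15745 tested genes rose and 3185 fell. A rhythm passed in 0 of the 7 in tamoxifen females (17.1% of all genes), 0 in tamoxifen males (8.03%), 1 in vehicle females (34.5%) and 2 in vehicle males (55.2%).

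The summed level of 8 cardiomyocyte markers had a median of 47900 CPM in tamoxifen females, 46700 in tamoxifen males, 48300 in vehicle females and 48300 in vehicle males, and ran from 41400 to 53500 CPM over all libraries. With tamoxifen 2 of the 8 rose and 1 fell in females, and 4 rose and 4 fell in males. These counts and those of the other markers stand beside 15.2% of all genes that rose and 12.3% that fell in females, and 32.2% that rose and 37.8% that fell in males. Scn4a is the channel of skeletal muscle, whose 10 markers summed to a median of 45.7 CPM in tamoxifen females, 45.2 in tamoxifen males, 53.6 in vehicle females and 43.3 in vehicle males, within a range of 25.6 to 79.1 CPM. Only 5 of the 10 passed the filter, and Myh4, a fast skeletal myosin, had 0 counts in every library of tamoxifen females and vehicle females. Most of the sum came from Mybpc2 (22 to 30.5 CPM as group means) and Cacna1s (17 to 22.9 CPM), while the fast muscle light chain Mylpf had 1.1 CPM in tamoxifen females, 1.07 in tamoxifen males, 1.09 in vehicle females and 1.58 in vehicle males. Of the 5, 1 rose and 2 fell with tamoxifen in each sex.

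Glia, in which Nax is known, were followed by 6 Schwann cell markers, which summed to a median of 22.4 CPM in tamoxifen females, 23.6 in tamoxifen males, 27.6 in vehicle females and 37.3 in vehicle males, with up to 115 CPM in a vehicle male library. Of 5 tested, 2 fell with tamoxifen in females (12.3% of all genes) and 4 in males (37.8% of all genes). The 8 fibroblast markers summed to a median of 2690 CPM in tamoxifen females (range 1920 to 3770), 1990 in tamoxifen males (1710 to 3250), 2290 in vehicle females (1940 to 3420) and 2320 in vehicle males (1740 to 3270). With tamoxifen 6 of them rose in females and 1 fell in males. Over the alternative settings described below, 2 to 6 of the 8 were called in females and 0 to 5 in males. The 6 endothelial markers had a median of 797 CPM in tamoxifen females, 871 in tamoxifen males, 899 in vehicle females and 1090 in vehicle males, and 2 fell in females and 6 in males. Calls were also made among mural markers (2 of 6 fell in females, and 1 rose and 2 fell in males) and macrophage markers (4 of 6 fell in females, 2 in males). Among conduction markers 2 of 5 fell in females, and 1 rose and 2 fell in males. Of 4 atrial markers tested, 2 fell in females and 0 were called in males. Those 2 were Myl7 (-3.75) and Myl4 (-2.15), and 7 vehicle female libraries but 1 tamoxifen female library held over 20 CPM of Myl7. Of all genes, 32.2% rose and 37.8% fell in males, and 15.2% rose and 12.3% fell in females. Adipocyte markers did not pass the filter, with medians of 0.187 to 0.693 CPM in the groups. Their part in the results on Scn4a, Scn4b and Scn7a was not tested.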

How the data were processed

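Poly-A selected RNA of mouse ventricle was sequenced in 96 libraries, per the labels' protocols. The deposited table gives raw, unnormalized counts for each gene, and 0 of its sample columns were left unmapped. The submitters' processing notes name HISAT2, Picard and HTSeq and the builds GRCm38 and mm10, with versions and strand setting not given in the sources used here. Counts per gene do not separate isoforms.

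Groups follow the labels for treatment and the titles for sex and time. In R 4.3.3, edgeR 4.0.16 kept 15629 genes (filterByExpr by group, minimum count 10), scaled by TMM and fitted 1 quasi-likelihood model to the 96 libraries together, in which each group has its own mean, cosine and sine terms at 24 h (12 coefficients, 84 residual degrees of freedom). P-values were adjusted by Benjamini-Hochberg over all tested genes, and 0.05 is the threshold of a call. CPM of single libraries are raw, and means are TMM-scaled. The 48 pairs of one group and time had a chi-square per gene of 3.86 to 99.6, over genes with at least 20 counts, so none was a duplicate. A count was worth at most 0.112 CPM.

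The 3 genes, the lists (sodium channel partners, sodium transport, other subunits, and markers of cardiomyocytes, atrial, conduction, fibroblast, Schwann, skeletal muscle, endothelial, mural, macrophage and adipocyte cells) and the alternatives were chosen with earlier results of these data known. Named list genes are the called ones with the 6 largest absolute changes for each sex, less some that are not reported here, and the 5 genes most like each member are by Pearson correlation. Other sodium channel subunit genes are reported as counts only. Alternatives used DESeq2 1.42.0 for means and limma 3.58.1 (voom) for rhythms, other scalings, no filter (with a trended dispersion only, as the default estimate could not be fitted there), length and GC offsets, other time models and subsets of libraries, of which those without tamoxifen libraries holding under 0.5 times the Arntl of their pair were added after seeing the data. The fit was tested on simulated data. Annotation is GENCODE M21, and promoters are from RefSeq. Intervals of log2 differences come from the fit, cover the spread between libraries and depend on its model.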

Additional observations from a re-analysis of the deposited data

Results flagged for a closer look

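The tamoxifen effects of females and males on the mean of Scn4a differed in a test of the difference itself, by -0.52 on the log2 scale (female minus male effect). The same test gave 0.37 for Scn7a, with the opposite sign. Of all tested genes, 52.3% passed this test. The 24 h rhythms of vehicle females and vehicle males differed, by a vector of 0.92 for Scn4a and of 0.96 for Scn4b on the log2 scale. There 37.4% of all tested genes passed. The Scn4a vector passed in all 26 alternatives in which it was computed. Both mean differences lost their call without the 10 TEC-high libraries of vehicle males, and both rhythm differences kept theirs.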

How the results depend on the processing

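No paired analysis was possible because the groups share no replicate numbers in the titles. The rhythm of Scn4a in vehicle females (amplitude 0.71 to 1.08), its rise with tamoxifen in males (0.30 to 0.54) and its rhythm difference between vehicle females and vehicle males (0.833 to 1.070) kept their calls in all 26 alternatives run for each. Of 546 comparisons of the 39 results on the 3 genes with settings other than left-out times, the call or direction changed in 63: 26 gained a call, 33 lost one and 4 turned sign. DESeq2 (means) and limma-voom (rhythms) changed no call of these genes. Except where a value or the setting's own construction (fewer libraries, more genes tested) shows it, the cause was not tested.

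Without the 10 TEC-high vehicle male libraries, tamoxifen effects in males were -0.062 for Scn7a (lost) and -0.075 for Scn4b (turned), and the difference of effects was -0.38 for Scn4a and 0.20 for Scn7a (both lost). The sex difference in vehicle hearts was -0.082 for Scn7a (lost) and -0.49 for Scn4b (gained), the rhythm of Scn4a 0.33 in tamoxifen females (gained) and 0.35 in vehicle males (lost), and its male rhythm change 0.47 (lost). Without libraries over 20 CPM of Myl7, the female tamoxifen effect was 0.041 for Scn4a (turned) and 0.20 for Scn7a (gained), the Scn4a sex difference in tamoxifen hearts -0.285 (lost) and its rhythm in tamoxifen females 0.36 (gained). Without the Xist-low library, which the Myl7 setting also left out, this rhythm was 0.36 (gained). The female rhythm change of Scn4a was then 0.60 and its sex difference in tamoxifen hearts -0.28 (both lost), and the male rhythm change of Scn4b 0.60 (gained). Without the Arntl-low library the Scn4a sex difference was -0.31 and the male effect on Scn4b 0.27 (both lost). Libraries low in Arntl beside their pair were left out in alternatives chosen after seeing the data. Without the tamoxifen female one, the difference of effects of Scn4b was -0.46 (gained). Without all 5, the Scn4a sex difference in tamoxifen hearts was -0.32 and the male effect on Scn4b 0.28 (both lost), and the vehicle male rhythm of Scn4b 0.39 (gained).

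With the first 24 h alone, the female rhythm change of Scn4a was 0.49, its sex difference in tamoxifen hearts -0.20, the vehicle female rhythm of Scn4b 0.61 and its sex difference in tamoxifen hearts -0.57 (all lost), and the vehicle sex difference of Scn4b 0.25 (turned). Calls were gained for the vehicle sex difference of Scn4a (0.28), the vehicle male rhythm of Scn4b (0.79), its male rhythm change (1.06) and difference of effects (-0.82), and the vehicle female rhythm of Scn7a (0.28) and its vehicle rhythm difference (0.41). With the second 24 h alone, calls were lost for Scn4a in the vehicle male rhythm (0.41), the rhythm change in females (0.89) and males (0.27) and the sex difference in tamoxifen hearts (-0.44). They were also lost for Scn4b in the vehicle rhythm difference (0.70), the sex difference in tamoxifen hearts (-0.54) and the male effect (0.14), and for Scn7a in the vehicle sex difference (-0.12), the difference of effects (0.18) and the male effect (-0.10). The vehicle sex difference of Scn4b was gained (-0.43) and its female effect turned (0.035).

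Without a filter, the female rhythm change (0.67) and sex difference in tamoxifen hearts (-0.32) of Scn4a and the male effect on Scn4b (0.32) were lost. With length and GC offsets, the female rhythm change of Scn4a (0.60) and the male effect on Scn4b (0.27) were lost, and the rhythm of Scn4a in tamoxifen females (0.31), those of Scn7a in vehicle females (0.17) and vehicle males (0.16), its vehicle rhythm difference (0.26) and its female effect (0.17) gained. DESeq2 size factors brought in the vehicle male rhythm (0.39) and male rhythm change (0.62) of Scn4b. Library size alone brought in the Scn4a rhythm in tamoxifen females (0.35) and lost the male effect on Scn4b (0.24). A mean for each group and time brought in the vehicle sex difference of Scn4a (0.22) and the difference of effects of Scn4b (-0.48), and 12 h terms the Scn4a rhythm in tamoxifen females (0.32).

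With single times left out, the male effect on Scn4b was 0.22 to 0.39 (lost without ct 22, 26, 30, 34, 38, 42, 50 or 62), its difference of effects -0.55 to -0.35 (gained without ct 18, 54 or 58) and its vehicle sex difference -0.22 to 0.014 (turned without ct 54). Its vehicle male rhythm was 0.26 to 0.54 (gained without ct 26, 42, 50, 54 or 58) and its male rhythm change 0.51 to 0.80 (gained without ct 26, 42, 54 or 58). For Scn4a, the sex difference was 0.12 to 0.30 in vehicle hearts (gained without ct 42, 46, 54 or 58) and -0.39 to -0.26 in tamoxifen hearts (lost except without ct 18, 26 or 62). Its rhythm was 0.24 to 0.36 in tamoxifen females (gained without ct 26 or 54) and 0.28 to 0.48 in vehicle males (lost without ct 38, 46 or 62). Its rhythm change was 0.57 to 0.79 in females (lost except without ct 18, 26 or 58) and 0.44 to 0.64 in males (lost without ct 22, 34, 38 or 46). For Scn7a, the vehicle female rhythm was 0.15 to 0.24 and the vehicle rhythm difference 0.15 to 0.32 (both gained without ct 54).

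Over all genes, scaling by library size alone gave 1794 higher and 2395 lower calls with tamoxifen in females (2381 and 1918 with TMM), 3825 and 7575 in males (5031 and 5905), 5157 and 3235 for the difference of effects (4216 and 3965) and 752 and 377 for the sex difference in tamoxifen hearts (638 and 563), and the median male change was then -0.137, beside -0.0465. Without the TEC-high libraries, 6652 genes passed in males (10936 with them), 4500 for the difference of effects (8181), 2932 for the vehicle male rhythm (8632) and 2659 for the vehicle rhythm difference (5838). The female rhythm change passed in 37 genes, and in 3 to 662 over the alternatives.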
